A study of Mus musculus with 189 samples.

Results

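Cluster a2 is one of 7 groups into which the authors of a single-cell study of the mouse dentate gyrus sorted their cells, and it is described here beside a1, the group it is compared with. The members were taken from the cluster line of the deposited table, and a2 holds 15 cells and a1 holds 45, out of 72 cells from postnatal day 3 (P3), 54 from day 7 (P7) and 63 from day 14 (P14). All cells came from C57BL/6 mice carrying a Hopx-GFP reporter, were captured from the dentate gyrus by fluorescence-activated sorting at one of these 3 ages, and are called quiescent neural stem cells in the labels. No cell was treated. SMART-Seq2, which makes cDNA along whole transcripts of single sorted cells, was used for all of them. Of the a2 cells 6 were from P3, 3 from P7 and 6 from P14, and of the a1 cells 28, 9 and 8. They made up 8.33% of the P3 cells (exact 95% interval 3.12 to 17.3%), 5.56% of the P7 cells (1.16 to 15.4%) and 9.52% of the P14 cells (3.58 to 19.6%). No label names an animal, so each age is 1 sample. The submitters' pseudotime, an ordering along a path, was given to cells of a1, q1 and q2 and to 0 of the a2 cells.

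In the dentate gyrus, radial stem cells give rise to intermediate progenitors, which divide a limited number of times and pass through a neuroblast stage to become granule neurons. Eomes, also called Tbr2, is a transcription factor of the intermediate progenitors, while Hopx, Sox9, Hes1, Hes5 and Id4 are genes of the stem cells. A dividing cell copies its DNA in S phase with the help of replication factors and nucleotide-making enzymes, and then in G2 and mitosis (M) makes the cyclins, kinases and motor proteins that separate the chromosomes. Top2a, a topoisomerase that untangles DNA, and Mki67, a protein of the mitotic chromosome surface, are transcribed through much of this cycle and mark dividing cells.

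The 2 clusters were made by the authors from the expression of these same cells, so differences between them describe the clusters and were not tested. Values are log2(CPM + 1), where CPM is the deposited estimated count divided by the cell's total, times 1000000. A gene was called detected in a cell above 1 CPM and measured if detected in at least 20% of the cells of a1 or a2. Among 7534 measured genes 2521 were higher in a2 by at least 1 log2 unit in the mean over cells (33.5%) and 299 were lower by as much (3.97%), and the median difference of all measured genes was 0.61. Of the genes past 1 log2 unit 89.4% were thus higher in a2, a share that was 58.2% after subtracting that median and 50% for log2 ratios of mean CPM, on which the median gene was at 0.06. The a2 cells were read more deeply, with a median of 444580 reads and 3792 detected genes, against 180067 reads and 3014 genes in a1. With every cell thinned to 50000 reads, which left out 1 a2 cell and 7 a1 cells, the medians were 3135 and 2608 genes. The median mitochondrial share was 2.18% in a2 and 2.55% in a1.

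The labels call all cells quiescent, but dividing-cell transcripts were present in a2: Top2a was detected in every a2 cell, and Mki67 and Eomes in most. Top2a was detected in 15 of 15 a2 cells (exact 95% interval 78.2 to 100%) and 21 of 45 a1 cells (31.7 to 62.1%). In a2 its level ran from 5.0 through a median of 9.48 to 11.06, and in a1 from 0 through a median of 0 to 11.32. The a2 mean was 9.16 ± 1.73 (SD over 15 cells) and the a1 mean 3.68 ± 4.32 (SD over 45 cells), a difference of 5.49. The groups overlapped, since 15 of the 45 a1 cells lay within the a2 range. Mki67 was detected in 14 of 15 a2 cells and 28 of 45 a1 cells, with medians of 8.97 and 6.26 and a difference in means of 3.05, which was 3.97 in P3, -0.24 in P7 and 4.06 in P14 cells. Of its nonzero values 51.9% were whole numbers, a sign of reads divided between similar entries. The single a2 cell without Mki67, from P7, had Top2a at 7.32.

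Eomes was detected in 13 of 15 a2 cells (59.5 to 98.3%) and 20 of 45 a1 cells (29.6 to 60%). Its lowest, median and highest levels were 0, 8.25 and 9.55 in a2 and 0, 0 and 10.49 in a1, and its means were 6.76 ± 3.16 and 3.67 ± 4.37. The difference of 3.09 came with a difference in the share of cells and not in the level of the cells that had it: among detecting cells the mean was 7.80 ± 1.68 in a2 and 8.25 ± 2.11 in a1, and the log2 ratio of mean CPM was 0.15. Hopx, the gene behind the sort, was detected in 5 of 15 a2 cells (11.8 to 61.6%) and 25 of 45 a1 cells (40 to 70.4%). Its means were 2.30 ± 3.21 and 3.62 ± 3.46, a difference of -1.32, which was -2.65 in odd well columns (10 a2 cells) and 0.84 in even ones (5 a2 cells). Reads of Hopx and of an antisense transcript could not be told apart. Most a2 cells, sorted on the reporter, therefore had no detected Hopx transcript.

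**Figure D1:**
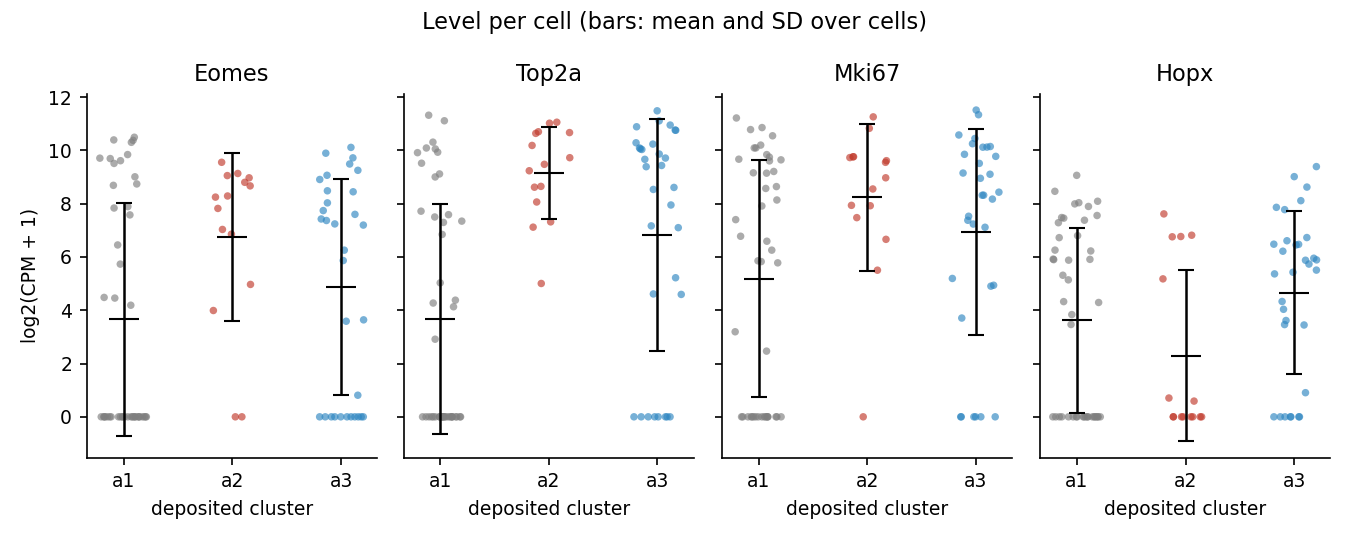
Level of Eomes, Top2a, Mki67 and Hopx, in log2(CPM + 1), in each cell of the deposited clusters a1 (45 cells), a2 (15 cells) and a3 (32 cells). Each point is a cell and the bars give the mean and SD over cells. All a2 cells lie at 5.0 or above for Top2a, while many a1 cells are at 0.

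The clusters q1, q2, ImA and MA held few such transcripts. Eomes was detected in 2 of 45 cells of q1, 1 of 19 of q2, 1 of 18 of MA and 0 of 15 of ImA, where the limit of 3 counts for a count of 0 is 20%. Top2a was found in 4, 0, 2 and 3 cells of these clusters in the same order. Only a3, with Eomes in 20 of 32 cells and Top2a in 24 of 32, was like a1 and a2 in having both genes in many cells. The intervals of these shares cover the counting of cells only, and not differences between animals, which the labels do not name.

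The share of cells with both Eomes and Top2a differed between the clusters, as did the shares of each gene. Eomes and Top2a were detected together in 13 of 15 a2 cells (59.5 to 98.3%), 7 of 45 a1 cells (6.49 to 29.5%) and 17 of 32 a3 cells (34.7 to 70.9%). In a1, 13 cells had Eomes without Top2a, 14 had Top2a without Eomes and 11 had neither. Whether the 2 genes were linked within cells was not tested. Of the 21 a1 cells with Top2a, 15 had Hopx, and of the 20 with Eomes, 6 had Hopx. Every a2 cell had Top2a, so no a2 cell could have Eomes without it, and 2 had Top2a without Eomes. Both of these cells, from P3, had Hopx, at 5.18 and 6.76. Eomes without Hopx was the state of 10 of 15 a2 cells and 14 of 45 a1 cells. Sox9, a stem cell factor also active in glia, was detected in 14 of 15 a2 cells, 12 of them with Eomes, and its means were 7.15 ± 2.48 in a2 and 7.54 ± 3.17 in a1.

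Markers of intermediate progenitors leaned to a2. Of 13 measured members of a list of 16, 6 lay above a1 by 1 log2 unit or more and 1 lay below it, against 33.5% and 3.97% of all measured genes. The list's median difference was 0.98, or 0.37 relative to the median of all measured genes, so the list stands little above the background. Elavl2, a neuronal RNA-binding protein, differed by 3.64 and was detected in 14 of 15 a2 cells and 20 of 45 a1 cells. Insm1, a zinc finger factor that promotes the formation of basal progenitors, differed by 2.20 (-0.07 in P14 cells), Mfap4, a matrix protein, by 2.49 (-0.30 in P14 cells), and Lzts1, a regulator of progenitor delamination, by 1.97. Neurog2, a proneural factor, differed by 1.14, and its means were 3.91 ± 3.43 in a2 and 2.77 ± 3.52 in a1. Its difference was 3.99 in P3 and -3.00 in P14 cells. Against the list, Tfap2c, a transcription factor of progenitors, stood at -1.58 (0.22 in P14 cells), and Mfng, which modifies Notch, was at -0.21. Counted per cell, each a2 cell had between 5 and 10 of the 15 listed genes found in the table, with a median of 7, and a1 cells had 0 to 10, with a median of 4. The list median was 0.15 as log2 ratios of mean CPM and 0.12 in P14 cells alone.

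Markers of neuroblasts, the next stage, also leaned to a2, though they were found in both clusters. Of 15 measured, 9 were higher in a2 and 0 lower, beside 33.5% and 3.97% of all measured genes. The median was 1.13, or 0.51 relative to the median gene. Elavl4 differed by 3.29, and Sox4, a factor of early neuronal differentiation, by 1.74, being detected in 15 of 15 a2 cells and 32 of 45 a1 cells. Igfbpl1 differed by 1.77, Neurod6, found in 4 of 15 and 2 of 45 cells, by 1.98, and Bhlhe22 by 1.64. Prox1, the granule neuron factor, differed by 1.48. In even well columns Bhlhe22 stood at -0.21 and Prox1 and Neurod1 both at -0.54. Neurod1, which acts after Eomes, was detected in 6 of 15 a2 cells, all of them with Eomes, and in 10 of 45 a1 cells. Dcx, a microtubule protein of immature neurons, was found in 10 of 15 and 17 of 45 cells and differed by 0.81, with -1.02 in P3 and 3.06 in P14 cells. Ncam1, an adhesion protein, stood at -0.33. As log2 ratios of mean CPM the list median was 0.16.

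Stem cell markers lay lower in a2, as did astrocyte genes. Of 23 measured, 11 lay below a1 by 1 log2 unit or more and 2 lay above it, and the median was -0.85. Of all measured genes 3.97% were lower and 33.5% higher. Hes5, a target of Notch signalling, was detected in 0 of 15 a2 cells (limit of 3 counts 20%) and 10 of 45 a1 cells. Hes1, its relative, was found in 1 of 15 and 17 of 45 cells and differed by -1.93, and Id4, an inhibitor of basic helix-loop-helix factors, in 2 of 15 and 20 of 45, with a difference of -2.05. Aldoc, an aldolase of glia, differed by -2.21, Vim, an intermediate filament, by -2.14 (0.50 in even well columns), Slc1a3, a glutamate transporter, by -1.62, Ednrb, an endothelin receptor, by -1.50 (0.60 in P14 cells) and Fabp7, a fatty acid binding protein of radial glia, by -1.26. Fabp7 was detected in all 15 a2 cells and Slc1a3 in 14. Against the list, the factors Pax6 (1.42) and Sox2 (1.0) were higher in a2, and each was detected in 13 of 15 cells, though Sox2 stood at 2.85 in P3 and -1.08 in P14 cells. A median of 11 stem cell markers was detected in a2 cells and 13 in a1 cells, or 7.5 and 12 after thinning. The list median was -1.32 as log2 ratios of mean CPM. It was -1.75 in odd and 0.50 in even well columns, the latter with 5 a2 cells.

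Astrocyte markers had a median of -0.83, close to that of the stem cell list, or -1.44 relative to the median gene. Of 9 measured, 2 were above 0. By 1 log2 unit 1 was lower, Fgfr3, a growth factor receptor (-1.73), and 0 were higher, beside 3.97% and 33.5% of all measured genes, and Aqp4, the water channel, was at 0.90. The list of astrocyte-type transporters and channels, some of which are in the other lists, also had a median of -0.83, with 2 of 14 genes higher and 2 lower. Markers of oligodendrocytes, microglia, vessels and red blood cells were at 0 in most cells. The summed CPM of 6 oligodendrocyte markers ran from 0 to 69.3 in a2 and from 0 to 961 in a1, with both medians at 0, and 5 of the 6 were at 0 in all a2 cells. For microglia the ranges of 2 markers were 0 to 125.8 and 0 to 496. Those of 3 endothelial and mural markers were 0 to 252 and 0 to 1356. For red blood cells the ranges of 3 globin genes were 0 to 195.6 and 0 to 271. All of these medians were 0. Sp8, an interneuron marker, was detected in 10 of 15 a2 and 16 of 45 a1 cells. Whether other cells had a part in any result was not tested.

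Genes of S phase were mostly higher in a2. Of 42 measured members of a list of 43, 32 lay above a1 by 1 log2 unit or more and 0 below it. That is beside 33.5% and 3.97% of all measured genes. The median difference was 2.13, and 0.61 for all measured genes. Rrm1 and Rrm2, the subunits of ribonucleotide reductase, differed by 3.94 and 3.18, and both were detected in 15 of 15 a2 cells. Rrm1 ran from 6.33 through 8.72 to 10.64 in a2 and from 0 through 4.32 to 10.57 in a1. Tyms, thymidylate synthase, differed by 3.72 (-0.06 in P14 cells), Gmnn, which blocks renewed licensing, by 3.67, Pold3, a DNA polymerase subunit, by 3.21 and Prim1, the primase, by 3.12. Wdr76 was at -0.61. Pcna, the sliding clamp, was detected in 14 of 15 and 34 of 45 cells and differed by 2.59.

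The machinery of the replication fork followed. Of 34 measured licensing and fork genes 26 were higher and 0 lower, with a median of 2.09, beside 33.5% and 3.97% of all measured genes. The same shares stand beside the other counts of this paragraph. Lig1, the ligase that joins Okazaki fragments, differed by 4.58, with means of 7.18 ± 2.21 in a2 and 2.61 ± 3.17 in a1, and was found in 14 of 15 and 21 of 45 cells. Rpa1, which coats single strands, differed by 4.01 and Rfc4, of the clamp loader, by 3.52. The helicase subunits Mcm6 and Mcm7 differed by 2.31 and 2.05, while Orc4, of the origin complex, stood at -0.52. Of 18 nucleotide synthesis genes 12 were higher and 0 lower, with Tk1, thymidine kinase, at 3.36, Dut, the dUTPase, at 3.26 and Cad, of pyrimidine synthesis, at -0.82. Chromatin assembly and methylation genes were higher in 16 of 25 cases, among them the histone chaperones Asf1b (3.89) and Chaf1b (2.97), the maintenance methyltransferase Dnmt1 (2.87) and Ezh2 of the Polycomb complex (2.76, with -0.46 in P3 cells). Of 19 DNA repair genes 14 were higher and 1 lower, with Atr, the checkpoint kinase, at -1.53.

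Genes of G2 and mitosis were higher by a similar median. Of 54 measured, 46 were higher and 0 lower, with a median of 2.12, beside 33.5% and 3.97% of all measured genes. These shares also stand beside the counts of the smaller lists below. Cdk1, the kinase that starts mitosis, was detected in 14 of 15 a2 cells and 22 of 45 a1 cells, with means of 8.90 ± 2.62 and 4.20 ± 4.52 and a difference of 4.71. Tpx2, a spindle factor, differed by 4.30, Smc4, of condensin, by 4.29, Aurka, the Aurora A kinase, by 4.07 and Lbr, a nuclear envelope receptor, by 3.90. The smallest difference was that of Cdc25c, a phosphatase that activates Cdk1, at 0.29. Mitotic kinases and cyclins were higher in 17 of 22 cases, spindle and kinesin genes in 23 of 26, kinetochore and centromere genes in 23 of 29 and cohesin and condensin genes in 14 of 19, with 0 lower in each of these lists. Spc25 and Cenpp, of the kinetochore, each differed by 3.85, Esco2, a cohesin acetyltransferase, by 3.68 and Anln, of the cleavage furrow, by 3.50. In the list of the spindle checkpoint and the anaphase-promoting complex (APC/C) 17 of 25 were higher and 1 lower: Fbxo5, also called Emi1, an inhibitor of APC/C, differed by 5.21, Mad2l1 by 3.93 and Bub3 by 3.78, while Anapc4 stood at -1.23.

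These differences, like that of Eomes, lay largely in how many cells had a transcript. The median S phase gene was detected in 34.4% of a1 cells and 60% of a2 cells, and the median G2/M gene in 36.7% and 66.7%. Among detecting cells alone the median difference was 0.37 for S phase and 0.34 for G2/M genes. As log2 ratios of mean CPM the list medians were 0.69 and 0.73. Thinned to 50000 reads they were 2.16 and 2.10.

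Promoters of the cycle genes are shown because the 2 phases' genes differed in the letters they held. The windows, from RefSeq on GRCm38.p6, run from 250 bases before to 50 after a start site and are written 5′ to 3′ along the gene. Capitals mark, on either strand, the letters of the CHR element (TTTGAA, or TTCAAA on the other strand) and the CCAAT box (CCAAT, or ATTGG), which are known from genes of G2 and mitosis, and an E2F core (GCGCGAAA or TTCGCGCC, or their reverse complements), known from genes of S phase. Matches may overlap. Top2a and Cdk1 stand for G2/M, Mki67 is a marker of the cluster and Eomes stands for the lineage. Lig1, which is in the replication fork list and not in the S phase list, stands for DNA replication. Top2a is at chr11:99024140-99024439 (minus strand), Cdk1 at chr10:69352863-69353162 (minus strand), Mki67 at chr7:135716330-135716629 (minus strand), the second of 3 Lig1 windows at chr7:13278576-13278875 (plus strand) and Eomes at chr9:118477939-118478238 (plus strand).
Top2a: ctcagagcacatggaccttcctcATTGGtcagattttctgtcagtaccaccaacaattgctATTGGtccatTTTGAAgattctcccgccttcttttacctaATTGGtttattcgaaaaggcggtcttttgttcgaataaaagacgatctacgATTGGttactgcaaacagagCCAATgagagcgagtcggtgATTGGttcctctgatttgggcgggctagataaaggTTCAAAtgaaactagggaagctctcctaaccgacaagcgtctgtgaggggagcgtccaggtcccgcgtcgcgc
Cdk1: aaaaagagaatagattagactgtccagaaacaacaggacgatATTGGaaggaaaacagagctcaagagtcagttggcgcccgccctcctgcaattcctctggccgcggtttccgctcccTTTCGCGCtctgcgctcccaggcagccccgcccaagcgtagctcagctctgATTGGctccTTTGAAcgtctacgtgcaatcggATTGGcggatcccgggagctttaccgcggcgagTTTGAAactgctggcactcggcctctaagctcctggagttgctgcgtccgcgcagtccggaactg
Mki67: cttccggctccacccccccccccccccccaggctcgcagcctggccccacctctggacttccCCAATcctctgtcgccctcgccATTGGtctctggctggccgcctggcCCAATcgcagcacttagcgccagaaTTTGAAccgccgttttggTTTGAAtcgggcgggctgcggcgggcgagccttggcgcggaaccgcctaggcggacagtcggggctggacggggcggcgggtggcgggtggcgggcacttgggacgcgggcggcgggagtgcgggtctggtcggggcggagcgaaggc
Lig1: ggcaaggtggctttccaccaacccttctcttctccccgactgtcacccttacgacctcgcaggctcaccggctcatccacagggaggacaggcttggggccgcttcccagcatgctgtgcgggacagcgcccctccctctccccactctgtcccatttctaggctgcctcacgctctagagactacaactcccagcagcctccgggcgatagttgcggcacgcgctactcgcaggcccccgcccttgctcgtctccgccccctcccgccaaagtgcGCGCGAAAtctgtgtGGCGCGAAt
Eomes: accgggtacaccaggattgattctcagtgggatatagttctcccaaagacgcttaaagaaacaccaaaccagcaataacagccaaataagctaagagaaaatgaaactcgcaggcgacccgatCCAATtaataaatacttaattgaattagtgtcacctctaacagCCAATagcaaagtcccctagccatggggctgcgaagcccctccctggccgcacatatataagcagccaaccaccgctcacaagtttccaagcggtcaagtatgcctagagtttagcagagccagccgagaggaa

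The Top2a window held 2 CHR elements and 6 CCAAT boxes, that of Cdk1 2 and 3 with 1 E2F core, and that of Mki67 2 and 3. The printed Lig1 window held 2 E2F cores and neither of the other motifs, and was chosen for these matches: the other 2 Lig1 windows held none of the 3 motifs. That of Eomes held 2 CCAAT boxes. Not every gene of a phase held its motif, since the windows of Pcna and Rrm2 held 0 E2F cores and that of Ccnb1 held 0 CHR elements. Over the lists, windows were found for 47 of 54 G2/M genes, 31 of 43 S phase genes and 9 of 15 intermediate progenitor genes. A CHR element was present for 33 of the 47 G2/M genes (70.2%), 6 of the 31 S phase genes (19.4%) and 0 of the 9 progenitor genes, beside 20.2% of 27025 genes with a window. A CCAAT box was present for 76.6%, 71% and 66.7%, beside 41.1%. An E2F core was present for 1 of 47 G2/M genes (2.13%) and 6 of 31 S phase genes (19.4%), beside 0.81%. The E-boxes CAGCTG or CATCTG were present for 21.3% of G2/M, 22.6% of S phase and 5 of 9 progenitor genes (55.6%), beside 33.4%. A gene was counted if any of its windows held the letters. Progenitor genes had a mean of 1.78 windows each, against 1.11 for G2/M, 1.10 for S phase and 1.22 for all genes. More sequence was thus searched per progenitor gene. These matches are letters in a window and were not tested.

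Per cell, a2 held S phase and G2/M genes in different mixtures. An a2 cell had 14 to 35 of the 43 S phase genes in the table (median 29) and 12 to 48 of the 54 G2/M genes (median 40). In a1 the ranges were 0 to 35 (median 14) and 2 to 43 (median 19). Of the 45 a1 cells 20 had as many genes of both lists as the lowest a2 cells, and 8 also as many progenitor markers. In a3 these numbers were 27 and 19 of 32. The clusters thus overlapped, and 25 of the 45 a1 cells fell below the lowest a2 value in at least 1 of the 2 cycle lists. Medians in q1 were 4 S phase and 6 G2/M genes.

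**Figure D2:**
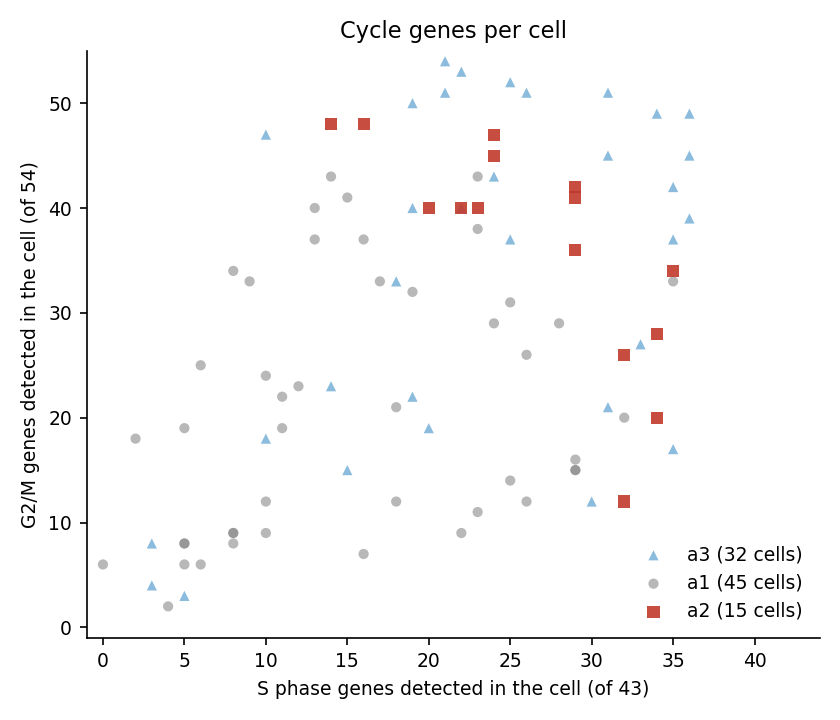
Number of S phase genes (horizontal axis, of 43) and of G2/M genes (vertical axis, of 54) detected above 1 CPM in each cell of a1 (45), a2 (15) and a3 (32). The a2 cells form an arc from many S and few G2/M genes (32 and 12) to few S and many G2/M genes (14 and 48), and the low corner holds a1 cells and a few a3 cells.

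Ordered by the mean level of the G2/M list less that of the S phase list, the 15 a2 cells ran from -3.81 to 5.55 with a median of 1.53. A similar range was found in a1 (-3.22 to 4.35) and a3 (-3.69 to 5.76). The S level exceeded the G2/M level in 20 of 45 a1 and 12 of 32 a3 cells. In a2 it did so in 6 cells, 3 of 6 from P3, 2 of 3 from P7 and 1 of 6 from P14. Of the a2 cells 2 lay within 0.5 of equal. The order is given as a range of values, and whether the a2 cells fall into separate types was not tested. Ccnb1, the cyclin of entry into mitosis, which is in neither list, was detected in 0 of the 6 cells on the S side and in 9 of the 9 on the G2/M side, where it ran from 7.61 to 11.65. Plk1, a mitotic kinase also outside the lists, was detected in 0 of 6 and 5 of 9, and Ccna2, the cyclin of S and G2, in 4 of 6 and 9 of 9. Of list members, Cdc20, the activator of APC/C in mitosis, was detected in 0 of 6 and 5 of 9 cells, and Ccne2, a cyclin of entry into S, in 4 of 6 and 3 of 9. Top2a was found in all 15. Eomes was detected in 5 of 6 cells on the S side and 8 of 9 on the G2/M side, with medians of 7.43 and 8.67. Whether it changed along this order was not tested. Hopx was detected in 2 of 6 and 3 of 9.

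**Figure D3:**
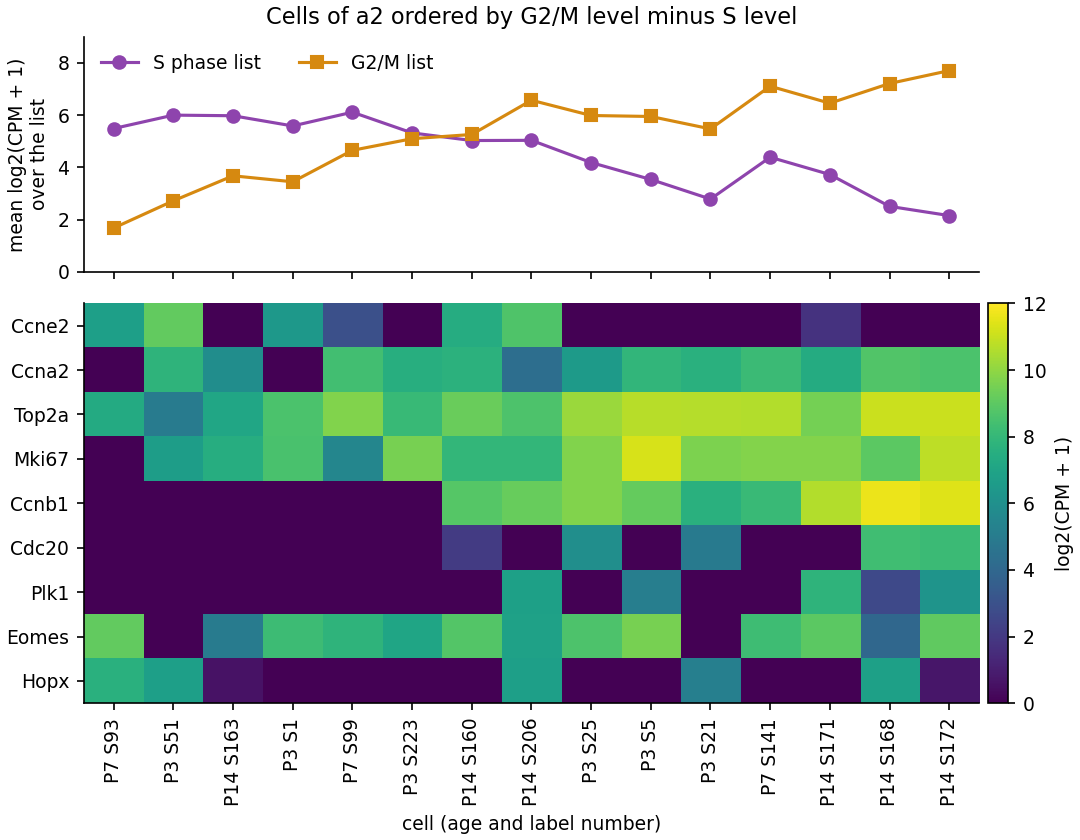
The 15 a2 cells in order of G2/M level less S phase level. The upper panel gives the mean log2(CPM + 1) over each list, and the lower panel the log2(CPM + 1) of 9 genes by colour, each column a cell named by its age and label number. Ccnb1 is at 0 in the first 6 cells and between 7.61 and 11.65 in the other 9, while Eomes is detected in 5 of those 6 and 8 of those 9 cells.

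Regulators of G1 differed less. Of 12 measured G1 and G1/S genes 5 were higher and 0 lower, a share near the 33.5% of all measured genes, and the median of 0.94 was 0.33 above that of the median gene. Cdk4 and Cdk6, the kinases of cyclin D, differed by 2.02 and 1.82, Cdk2, the kinase of cyclins E and A, by 2.0, and Ccne2 by 0.83. Cdk2 was detected in 10 of 15 a2 and 13 of 45 a1 cells. With cells thinned to equal reads it was detected in 4 of 14 (28.6%) and 11 of 38 (28.9%). Its difference in detection was thus not kept at equal depth. Cdk4 was then detected in 14 and 32 cells, Cdk6 in 13 and 29 and Ccne2 in 5 and 9. The 3 measured inhibitors of cyclin-dependent kinases were all higher in a2. Cdkn2d, encoding p19, differed by 3.81 and was detected in 11 of 15 a2 cells and 8 of 45 a1 cells. Cdkn1b, encoding p27, differed by 2.37 and was found in 14 of 15 and 20 of 45 cells, with means of 4.60 ± 1.75 and 2.24 ± 2.85. Cdkn2c, encoding p18, differed by 1.88. After the same thinning, Cdkn2d was detected in 10 of 14 a2 and 6 of 38 a1 cells. Cdkn1b was then detected in 8 and 13 cells and Cdkn2c in 8 and 11. As log2 ratios of mean CPM these 3 genes stood at 1.0, 0.02 and -0.31.

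The rule for single genes takes the 15 highest and 15 lowest that held in odd and even well columns and in every age. It passes over predicted or unnamed gene models, Xist, Tsix, Y-linked genes and entries turned into dates. The highest were Kpna2 (5.58), Top2a, Fbxo5, Tex30 (4.74), Ccna2 (4.73), Cdk1, Lig1, Hist1h4d (4.35), Tpx2, Smc4, Prc1 (4.28), Pbk (4.27), Prpf8 (4.23), Lsm2 (4.23) and Stag1 (4.17). Kpna2 is a nuclear import adaptor, Prc1 bundles microtubules in the dividing cell, Pbk is a mitotic kinase, Stag1 is a cohesin subunit, and Prpf8 and Lsm2 belong to the spliceosome. Kpna2, Ccna2 and Hist1h4d had few whole counts (32.9%, 30.2% and 55.9% of their nonzero values), a sign of reads divided between similar genes, and are uncertain. The same holds, among genes described above or below, for Cdk4 (55.6%), Lbr (47.7%), Sox4 (39.1%), Ccnb1 (58.7%), Ndufab1 (28.8%), Rpsa (22.5%) and Rps23 (1.09%). Fbxo5 (chromosome 10, 5799160 to 5805600, GRCm38) was detected in 13 of 15 a2 cells and 11 of 45 a1 cells, Prpf8 in 12 and 13, and Stag1 in 12 and 15. Lsm2 was detected in 14 and 18 cells and Tex30 in 14 and 19.

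The lowest were Ank2 (-2.77), a membrane scaffold, Plpp3 (-2.60), a lipid phosphatase, Pdcd10 (-2.57), Arhgap12 (-2.43), Aldoc, Zcchc24 (-2.15), Itgb8 (-2.08), an integrin subunit, Rsrp1 (-2.08), Id4, Epm2aip1 (-2.04), Tmem47 (-2.04), Ankrd10 (-1.99), Tst (-1.97), a sulfurtransferase, Scrg1 (-1.95) and Hes1. Itgb8 (chromosome 12, 119158022 to 119238802) was at 0 in all 15 a2 cells and detected in 13 of 45 a1 cells. Arhgap12 was also detected in 0 of 15 a2 cells and in 16 of 45 a1 cells. For both genes the limit of 3 counts is again 20%. Ank2 (chromosome 3, 126921612 to 127499350) was detected in 3 of 15 a2 cells and 27 of 45 a1 cells, with means of 1.15 ± 2.40 and 3.93 ± 3.85.

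**Figure D4:**
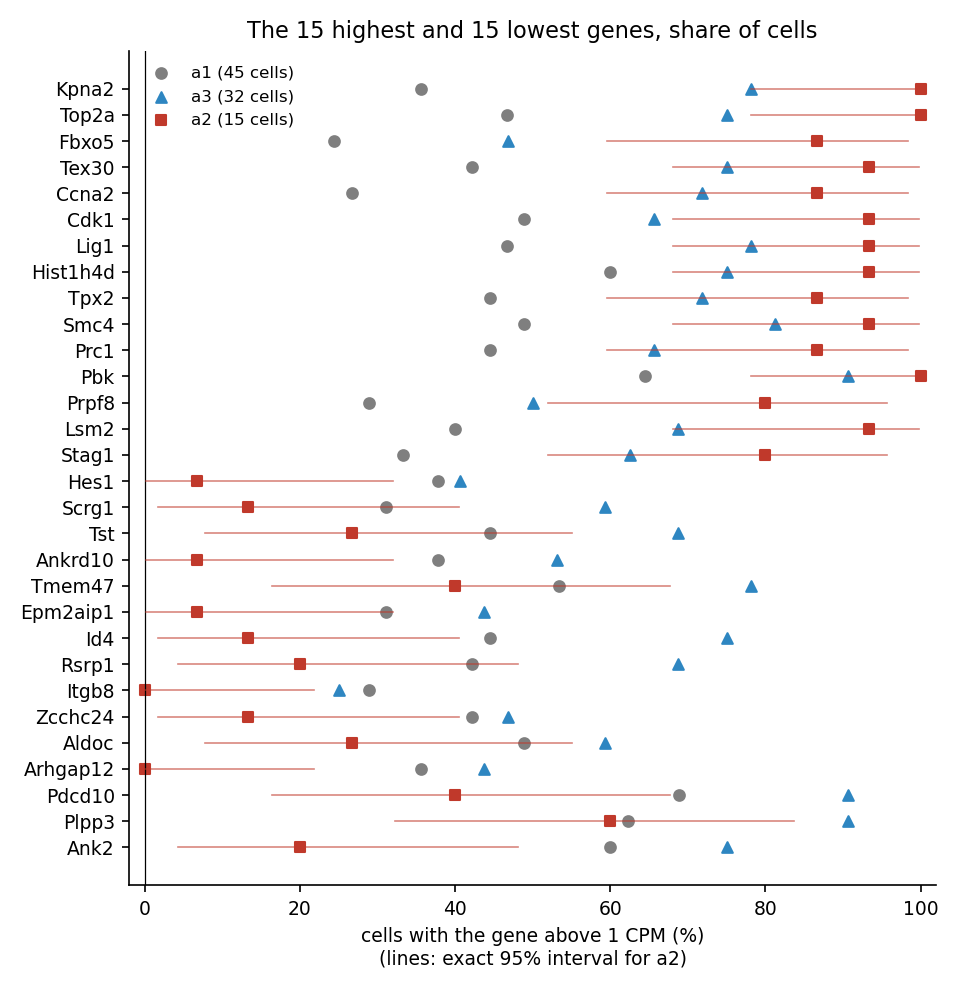
Share of cells (percent, horizontal axis) of a1, a2 and a3 in which each of the 15 highest and 15 lowest genes was detected above 1 CPM, with the exact 95% interval for a2 as a line. The 15 upper genes were detected in 80 to 100% of a2 cells, and Itgb8 and Arhgap12 in 0%.

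Over all cells, medians of the signalling lists lay below that of all measured genes, with members on both sides of 0. Of all measured genes, beside which the counts here stand, 33.5% were higher and 3.97% lower, with a median of 0.61. Of 9 Notch genes 1 was higher and 2 lower, with a median of 0.01: Mib1, a ligase that activates Notch ligands, stood at 2.14, while Hes1 and Hes5 were the lower ones. Of 9 genes of BMP signalling and the Id family 3 were higher, a share near that of all measured genes, and 2 lower. The receptor Bmpr2 led the higher ones (3.25, with -0.42 in even well columns). The lower ones were Id4 and Id3 (-1.35, with 0.52 in P14 cells). The median of this list was 0.24, and 1.69 in P14 cells. Of 9 genes of the Shh, FGF and EGF pathways 0 were higher and 2 lower, with a median of 0.32. Among 10 Wnt genes 1 was higher and 1 lower, with a median of 0.24. Genes of energy and RNA processing differed by little more than the median gene. Of 34 oxidative phosphorylation genes 17 were higher and 0 lower, with a median of 0.96 and with the complex I subunits Ndufab1 (2.61) and Ndufb8 (2.60) at the top, and of 24 splicing genes 10 were higher and 0 lower, with Snrpb, a core spliceosome protein, at 3.80. Of 32 ribosomal protein genes 1, Rpsa (1.16), was higher and 0 lower, and the lowest value was that of Rps23 (-0.82). Their median was 0.22, or -0.40 relative to the median gene. As log2 ratios of mean CPM the medians of these last 3 lists were 0.15, 0.07 and 0.04. Among 19 replication-dependent histone genes, a list made after the values were seen, 7 were higher and 0 lower, again near 33.5%, with a median of 0.84, or 0.22 relative to the median gene, and these genes are known for transcripts with no poly(A) tail.

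Within ages, the S phase and G2/M lists kept their direction, but not their size. The S phase median was 2.21 in P3, 3.69 in P7 and 1.02 in P14 cells, and the G2/M median 1.64, 1.53 and 3.04. The median of all measured genes was 0.59, 0.37 and 0.70, so that the P14 S phase value exceeded it by 0.32. The a2 cells of P7 are only 3, and 1 of the 6 at P14 lay on the S side. Depth differed most at P14: median reads were 294844, 452988 and 1262940 in a2, and 189632, 161847 and 182546 in a1. Whether depth had a part in the age differences was not tested. The stem cell median was -0.89, -1.85 and -0.50, and the progenitor median 0.93, 1.35 and 0.12. The median of the spindle checkpoint and APC/C list was 0 in P7 cells. Eomes itself differed by 1.65, 4.48 and 4.67 in the same order, and was detected in 4 of 6, 3 of 3 and 6 of 6 a2 cells and in 14 of 28, 4 of 9 and 2 of 8 a1 cells. No label number is shared between ages, and those of P3 lie partly before those of P7 and partly after those of P14. The labels name no preparation, so age and preparation cannot be told apart.

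**Figure D5:**
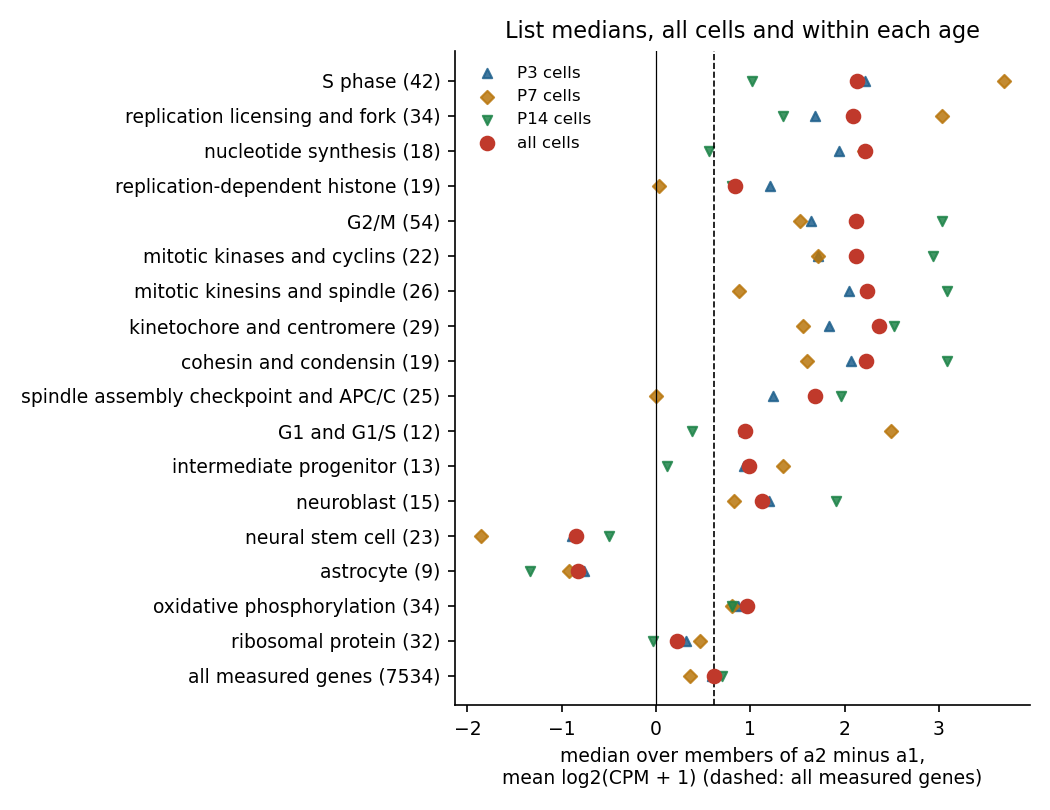
Median difference a2 minus a1, in mean log2(CPM + 1), over the measured members of each list (number in brackets), for all cells and for P3, P7 and P14 cells alone, with the median of all measured genes (0.61) as a dashed line. S phase and G2/M medians lie right of that line at every age and stem cell medians left of 0.

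The other cluster with Eomes and Top2a in many cells was a3. It has 32 cells, 9 from P3, 16 from P7 and 7 from P14, against 6, 3 and 6 in a2. Median reads were 585970 in a3 and 444580 in a2, and median detected genes 4538.5 and 3792, or 3679.5 and 3135 after thinning. Whether age or depth had a part in the differences below was not tested. Among 8584 genes measured in a2 or a3, 746 lay above a3 by 1 log2 unit or more (8.69%) and 1847 below it (21.5%), and the median was -0.20. Of 43 S phase genes 20 were higher in a2 and 4 lower (median 0.82), and of 54 G2/M genes 14 were higher and 6 lower (median 0.35). Fbxo5 was higher in a2 by 3.49, Cdk1 by 2.92, Top2a by 2.34 and Lig1 by 2.17, while Ccnb1 stood at -0.95 and Eomes at 1.88. Of the lists given here, that of stem cell markers had the median furthest from 0: 17 of 23 genes were lower in a2 and 0 higher, with a median of -2.30. Hopx stood at -2.37 and was detected in 24 of 32 a3 cells, against 5 of 15 in a2, and Id4 at -3.38. Of 14 astrocyte markers 10 were lower in a2 and 0 higher, with a median of -1.62.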

How the data were processed

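The deposited table holds estimated counts per gene entry and cell, made by the authors before deposit: its name speaks of another unit, but 81.0% of the nonzero values are whole numbers within 0.005 and the cell totals differ, so the values were read as RSEM's estimated counts and not rescaled by length. RSEM, cutadapt and mm10 are named in the submitters' processing notes, with no version, and whether strand was used in counting is not given there. Clusters, ages and pseudotime were taken from the 3 annotation lines of the table.

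Each cell was scaled to CPM over its 15704 gene entries and set to log2(CPM + 1). Differences are between means over cells, SDs are over cells, and shares have exact Clopper-Pearson 95% intervals. The limit for a count of 0 is 3 counts of the total. No p-value was computed, because the clusters were made from these genes and cells of 1 age are 1 sample. No pair among the 60 a1 and a2 cells was identical. Single genes were named as the 15 highest and 15 lowest that kept the sign of the difference in every age. They also kept no less than 50% of the difference in the odd as well as the even well columns. Predicted or unnamed gene models, Xist, Tsix, Y-linked genes and entries turned into dates were passed over. From each list up to 6 members along the median and 2 against it were named. Sox9, Fabp7, Hes5, Neurod1, Dcx, Pcna, Mcm6, Mcm7, Plk1, Cdc20, Ccnb1 and Ccne2 were named by role. Members and lists were chosen with earlier results of these data known. Alternatives were the pseudocount, the detection filter, ratios of mean CPM, centring, single ages, well columns, a minimum of 50000 reads and thinning. Positions are from GENCODE M21 on GRCm38, whose symbols matched 96.4% of entries. Scripts were tested on simulated data and used Python 3.11.15, numpy 2.4.6, pandas 2.3.3, scipy 1.17.1 and matplotlib 3.10.9.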

Additional observations from a re-analysis of the deposited data

Results flagged for a closer look

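Among the single genes described, 3 stood on opposite sides of 0 in P3 and P14 cells by at least 1 log2 unit each way. Neurog2 differed between a2 and a1 by 3.99 in P3 and by -3.00 in P14 cells. Dcx differed by -1.02 in P3 and by 3.06 in P14 cells. Sox2 differed by 2.85 in P3 and by -1.08 in P14 cells. The difference between ages was not tested, since each age is 1 sample, and each P14 value rests on 6 a2 and 8 a1 cells. Median reads of these P14 cells were 1262940 in a2 and 182546 in a1.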

How the results depend on the processing

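The number of genes higher in a2 was 3886 with a pseudocount of 0.1, 882 with 10, 1282 as ratios of mean CPM, 1613 among genes detected in 50% of cells and 1210 after centring on the median gene. The number lower was 494, 74, 1282, 60 and 868 under the same settings, 660 in P3 cells, 901 in P14 cells, 548 in odd and 813 in even well columns. As ratios of mean CPM the list medians were 0.15 for intermediate progenitor, 0.16 for neuroblast, 0.69 for S phase and 0.73 for G2/M genes, and after centring these ratios they were 0.090, 0.10, 0.63 and 0.66, with the CDK inhibitors at -0.040. In P14 cells the progenitor, neuroblast, astrocyte and G2/M medians were 0.12, 1.90, -1.34 and 3.04. After centring, the progenitor, astrocyte and S phase medians there were -0.58, -2.04 and 0.32, nucleotide synthesis was at -0.14, and in P3 cells the progenitor, astrocyte and G2/M medians were 0.34, -1.35 and 1.05. In even well columns the progenitor, neuroblast, stem cell and G2/M medians were 1.62, 0.21, 0.50 and 3.06, and in odd columns the stem cell median was -1.75. The progenitor median was 2.20 among genes detected in 50% of cells, and the neuroblast median 0.51 after centring. The astrocyte median was -1.17 with a pseudocount of 0.1, -0.45 with 10, -0.26 among genes detected in 5% of cells and -1.44 after centring. The G2/M median was 3.04 with a pseudocount of 0.1. Single genes that changed sign were Hopx (0.84), Bhlhe22 (-0.21), Prox1 (-0.54), Neurod1 (-0.54), Vim (0.50) and Bmpr2 (-0.42) in even columns, Mfap4 (-0.30), Insm1 (-0.066), Neurog2 (-3.00), Tfap2c (0.22), Ednrb (0.60), Sox2 (-1.08), Tyms (-0.060) and Id3 (0.52) in P14 cells, Ezh2 (-0.46) in P3 cells and Cdkn2c (-0.31) as a ratio of mean CPM. The cause was not tested. The centring of single ages and of ratios was added after seeing the data.

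S phase and G2/M medians were above 0 under every setting run. Even columns hold 5 a2 cells and P7 holds 3, and cells of 15 and 45 limit every share. Depth differs between the clusters. With only cells of at least 50000 reads, 2493 genes were higher and 360 lower, and thinned to that number 2302 and 418.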
